A study of Mus musculus with 20 samples.

Results

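Hearts of 5 Dp1Tyb mouse embryos were compared with hearts of 5 Dp1TybDyrk1a+/+/- embryos by RNA sequencing (RNAseq), 10 of the 20 whole hearts in the series. Each heart was placed by the genotype in its label. Dp1Tyb mice carry a duplication of mouse chromosome 16 from Lipi to Zbtb21, a region orthologous to much of human chromosome 21, and so have 3 copies of every gene in it. Dp1TybDyrk1a+/+/- mice carry the same duplication together with the Dyrk1a tm1Mla allele, a deletion within Dyrk1a, which leaves 2 functional copies of that gene and 3 of the others. All embryos were on the C57BL/6J background and were taken at stage E13.5, and the other 10 hearts were from WT embryos of the same age. The comparison asks which transcripts differ with the added copy of Dyrk1a when the rest of the region stays in 3 copies. The Dp1TybDyrk1a+/+/- mice descend from a single pup in which a crossover placed both alleles on 1 chromosome, and they were kept as a strain of their own, so the difference in genotype and any other difference between the strains cannot be told apart. The paper states that controls were WT littermates, also for the Dp1TybDyrk1a+/+/- strain, so the WT hearts may come from litters of both strains. They are pooled here as the reference. Nothing in the labels gives litter or sex of the embryos, and P-values measure the spread between separate hearts.

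DYRK1A is a protein kinase whose dose is sensitive in both directions. It phosphorylates LIN52, a subunit of the MuvB core, and so favours the assembly of the DREAM complex, in which a pocket protein such as p107 (encoded by Rbl1) or p130 and an E2F factor keep cell-cycle genes repressed in resting cells. DREAM reaches late cell-cycle promoters through the CHR, a short cell cycle homology element, and early ones through E2F sites, and DYRK1A also phosphorylates D-type cyclins and marks them for degradation. Heart muscle of the E13.5 embryo still divides while the chambers are being septated, and cycling cells make up a large part of the tissue.

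Values are log2 normalized counts as deposited, and a difference is always Dp1Tyb minus Dp1TybDyrk1a+/+/- on that log2 scale, so a negative difference means less RNA in hearts with 3 functional copies of Dyrk1a. Read totals cannot be recovered from such values, so the depth behind each one is unknown. Values did not fall near 0 where little RNA would be present. The Y-linked gene Ddx3y stood at 7.41 to 7.89 in the Dp1Tyb hearts A3, A4, A7 and A12, which had high Xist, an RNA of females. It stood at 10.47 in A6, which had low Xist. Differences on this scale may thus be too small, for low genes or others, and by how much was not tested. A gene was called where its limma P-value, adjusted over all 15304 genes averaging 10 or more normalized counts, was under 0.05. In whole hearts, fewer cells of a type and less RNA per cell cannot be told apart.

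Dyrk1a itself (GRCm39 chr16:94369804-94496380, plus strand) was not lower in hearts with the deleted allele. Its values were 11.65, 11.66, 11.71, 11.75 and 11.67 in the Dp1Tyb hearts. The Dp1TybDyrk1a+/+/- hearts gave 11.74, 11.70, 11.85, 11.78 and 11.75. The groups overlapped, the difference was -0.07 ± 0.03 (SE, adjusted P = 0.209 by limma), and both groups lay above the WT mean of 11.37 ± 0.04 (SD, n = 10). A gene-level value sums reads over all exons, the remaining ones included, so it does not check the labelled deletion. The paper reports that its RNAseq showed the deletion of exons in the Dyrk1a allele. By mass spectrometry it also reports more DYRK1A protein in Dp1Tyb than in Dp1TybDyrk1a+/+/- hearts. The rest of the duplicated region was at about the same level in both groups. Of its 95 tested genes, 85 had means above WT in both, with a median log2 excess over WT of 0.30 in Dp1Tyb and 0.33 in Dp1TybDyrk1a+/+/- hearts.

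One heart stood apart before any comparison was made. Heart A15, labelled Dp1TybDyrk1a+/+/-, lay 0.233 log2 units (root mean square over tested genes) from the mean of the other hearts of its genotype, while those other 4 hearts lay 0.089 to 0.105 away and the Dp1Tyb hearts 0.067 to 0.092. In A15, 59 genes differed from the mean of its 4 companions by more than 1 log2 unit. The share of summed normalized counts from mitochondrially encoded genes was 9.11% in A15 and 4.10% to 5.12% in the other 9 hearts. Among WT hearts, A10 was the farthest at 0.149, with a mitochondrial share of 6.69%.

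The genotypes were also uneven in other respects. Xist, the RNA of the inactive X chromosome in females, was at 12.98 to 13.38 in 4 of the 5 Dp1Tyb hearts and at 7.89 in A6. Among Dp1TybDyrk1a+/+/- hearts it was at 13.31 in A14 alone and at 7.83 to 8.13 in the other 4. Female and male embryos were thus spread unevenly. Of 549 tested X-linked genes 9 were called lower in Dp1Tyb and 0 higher, against 0.738% and 0.425% of all genes tested. The median difference of the X-linked genes was -0.010. The library names place 2, 2 and 1 Dp1Tyb hearts and 1, 1 and 3 Dp1TybDyrk1a+/+/- hearts on sequencing lanes 3, 6 and 7. Results are therefore given with and without A15, and the counts of calls with lane or Xist level in the fit are given beside the main ones.

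With all hearts, 178 genes were called, 65 higher in Dp1Tyb (0.425% of the genes tested) and 113 lower (0.738%), or 48 higher and 177 lower where each heart was first centred on its median. Without A15, 200 genes were called, 68 higher (0.444%) and 132 lower (0.863%). The calls shared 130 genes, 45 higher and 85 lower, which is 73.0% of the first set and 65.0% of the second. Another 48 genes were called only with A15 in the fit and 70 only without it, and every gene called in either fit kept its sign in the other. On the deposited scale the differences were small, with a median of 0.15 log2 units in each direction. The largest called difference was 0.37.

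**Figure D1:**
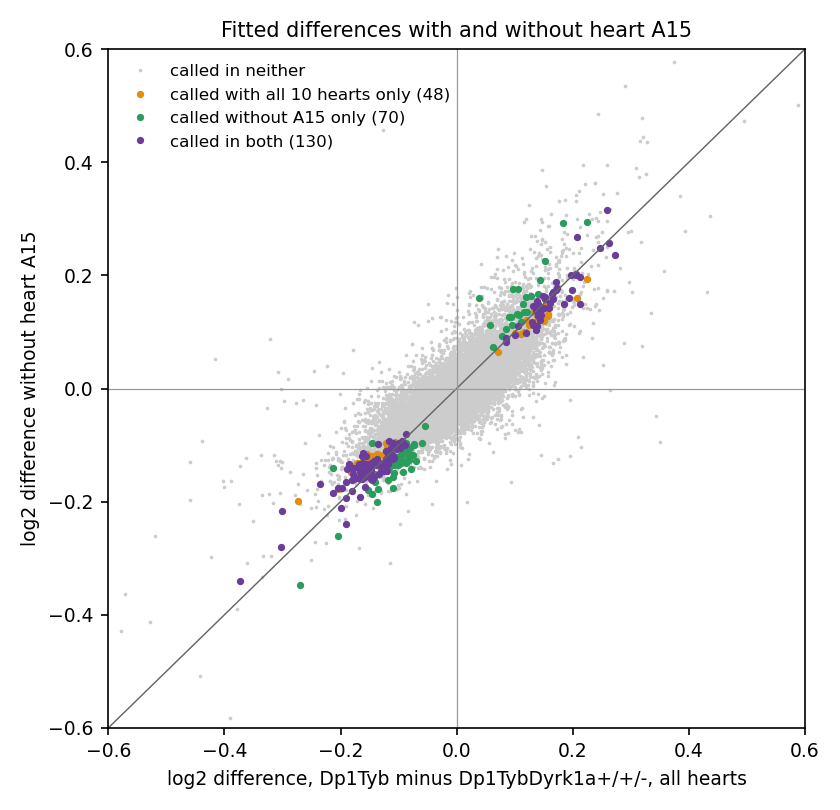
Fitted log2 difference (Dp1Tyb minus Dp1TybDyrk1a+/+/-) of each tested gene with all hearts (horizontal axis) and without heart A15 (vertical axis). Purple points are the 130 genes called in both fits, orange the 48 called only with all hearts, green the 70 called only without A15, and grey points genes called in neither. No called gene changes sign, and 18 uncalled genes lie beyond the axes, which end at 0.6.

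The hearts of each group rarely overlapped for these genes. The calls were made on these same hearts, so such separation follows in large part from the call and is no separate evidence. All 5 Dp1Tyb hearts lay above all 5 Dp1TybDyrk1a+/+/- hearts for 57 of the 65 higher genes, against 2.1% of all genes tested, and below them for 108 of the 113 lower genes, against 3.55%. Without A15 the background shares were 3.34% above and 5.33% below. For groups without overlap the sign within a lane is already fixed, and all 178 genes had the same sign in lanes 3, 6 and 7. The smallest two-sided P-value that an exact permutation test can give here is 0.00794, both for 5 against 5 and for 5 against 4 hearts. The WT mean lay between the 2 group means for 59 of the higher and 106 of the lower genes, against 50.9% of all genes tested. Called genes were picked for a wide gap between those means, which by itself makes another mean more likely to lie inside it. The WT mean was nearer to the Dp1TybDyrk1a+/+/- mean for 52 of the 65 and 97 of the 113, against 53.1% of all genes tested.

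The number of calls depended on single hearts and on the terms in the fit. Leaving out 1 of the 10 hearts gave from 30 calls (without A4) to 302 (without A14), and 26 genes were called in the main fit and in all 10 of these fits. With the 10 hearts of the comparison fitted alone, which leaves the WT hearts out of the estimate of spread, 3 genes were called, and 329 without A15. With lane as a covariate, 29 genes were called, and 90 without A15. With Xist level as a covariate, added after seeing the data, 12 were called with all hearts and 49 without A15. Among those 12 were Mrap, Pnrc2, Rbl1, Spdl1, Cdkn1b, C1qtnf6, Bub1, Bard1, Hirip3, Fbxo5 and Ckap2. In each of these fits every one of the 178 genes kept its sign. Where the groups do not overlap, leaving out a heart cannot change the sign. Fitting the 10 hearts alone leaves the difference of group means as it was. Kept signs in such fits are no separate evidence. The part of embryo sex, lane or strain in the remaining differences was not tested.

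Genes of mitosis were the largest group that fell. Of 48 tested genes for mitosis, spindle and kinetochore, 19 were lower in Dp1Tyb and none higher with all hearts, and 16 were lower and none higher without A15. Over all genes tested, 0.738% were called lower and 0.425% higher with all hearts, and 0.863% and 0.444% without A15. The counts of calls in each list below stand against these shares. The median difference of the list was -0.125 with all hearts and -0.110 without A15, against 0.003 and 0.000 for all genes tested, and 46 of the 48 differences were below 0. The summed level of the list was lowest in the Dp1Tyb hearts, whose means relative to WT ran from -0.15 to -0.08, while the Dp1TybDyrk1a+/+/- hearts ran from -0.03 to 0.05 without A15 and A15 was at 0.08. With Xist level in the fit the median of the list was -0.123 with all hearts and -0.110 without A15.

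Some promoters of the cell-cycle genes that fell hold the CHR letters near the start of transcription. RefSeq windows (build GRCm38.p6) of 250 bases before to 50 after the start were searched for the CHR hexamers TTTGAA and TTCGAA on both strands. Shown here are the 4 cell-cycle genes called lower with and without A15 that had the smallest adjusted P-values and a CHR hexamer starting within 30 bases of the transcription start, chosen after their values were seen, with the hexamer in capitals. The fifth window, that of Rbl1, holds no CHR hexamer and has in capitals the E2F octamer TTTCGCGC, which starts 18 bases before the start.
Bub1 (chr2:127831810-127832109, minus strand): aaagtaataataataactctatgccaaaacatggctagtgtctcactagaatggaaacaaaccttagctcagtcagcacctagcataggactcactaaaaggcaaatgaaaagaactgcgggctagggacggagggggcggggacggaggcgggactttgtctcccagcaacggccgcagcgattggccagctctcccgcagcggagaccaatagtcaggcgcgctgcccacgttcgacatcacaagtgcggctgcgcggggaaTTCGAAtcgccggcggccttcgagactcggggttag
Fbxo5 (chr10:5805416-5805715, minus strand): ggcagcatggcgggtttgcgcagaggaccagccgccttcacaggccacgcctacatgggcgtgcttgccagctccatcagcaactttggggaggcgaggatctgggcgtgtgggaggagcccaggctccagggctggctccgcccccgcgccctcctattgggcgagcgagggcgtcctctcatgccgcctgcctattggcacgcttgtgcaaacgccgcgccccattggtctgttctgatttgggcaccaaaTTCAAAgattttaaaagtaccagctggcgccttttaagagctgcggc
Prc1 (chr7:80294201-80294500, plus strand): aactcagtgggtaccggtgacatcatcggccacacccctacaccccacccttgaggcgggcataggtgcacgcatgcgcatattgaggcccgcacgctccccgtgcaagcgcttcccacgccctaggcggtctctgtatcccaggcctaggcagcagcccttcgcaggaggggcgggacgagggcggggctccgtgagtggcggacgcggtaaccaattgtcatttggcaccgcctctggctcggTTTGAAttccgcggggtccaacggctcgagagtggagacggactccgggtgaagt
Kif11 (chr19:37376132-37376431, plus strand): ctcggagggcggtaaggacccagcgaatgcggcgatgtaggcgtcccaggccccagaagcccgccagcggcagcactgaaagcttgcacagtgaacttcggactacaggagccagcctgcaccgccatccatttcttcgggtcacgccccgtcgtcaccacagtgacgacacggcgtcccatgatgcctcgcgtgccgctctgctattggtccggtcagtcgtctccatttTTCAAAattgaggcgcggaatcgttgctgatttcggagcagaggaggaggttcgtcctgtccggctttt
Rbl1 (chr2:157204485-157204784, minus strand): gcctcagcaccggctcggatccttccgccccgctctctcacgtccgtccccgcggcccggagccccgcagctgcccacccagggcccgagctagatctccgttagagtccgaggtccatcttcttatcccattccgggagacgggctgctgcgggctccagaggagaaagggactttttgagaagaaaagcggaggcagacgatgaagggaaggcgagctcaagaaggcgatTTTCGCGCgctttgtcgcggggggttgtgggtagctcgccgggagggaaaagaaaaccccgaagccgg

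The hexamer begins 5 bases before the start in Prc1 and 19 before it in Kif11, and at transcribed base 15 in Bub1 and 4 in Fbxo5. Of 23 genes from the 4 cell-cycle lists (G1, replication, mitosis and cohesin) called lower with and without A15, 17 had a window and 9 of those held a CHR hexamer. A CHR hexamer was present in a window of 31 of the 95 matched genes lower in Dp1Tyb (32.6%), of 8 of the 55 matched higher genes (14.5%) and of 16.3% of the 11103 matched tested genes. For the mitosis list the share was 76.2% of 42 matched genes. Lower genes outside every function list held it in 22.1% of 68 cases. The E2F octamers TTTGGCGC, TTTGCCGC, TTTCGCGC and TTTCCCGC, on either strand, were in the windows of 13.7% of the lower genes, 0.0% of the higher ones and 4.7% of the tested genes. The pentamer CCAAT, the site of NF-Y, was in 65.3%, 29.1% and 42.5%. These are counts of letters in windows, and they say nothing of whether a factor was bound.

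Bub1, of the spindle checkpoint, separated the groups clearly. This kinase (GRCm39 chr2:127643036-127673806) marks unattached kinetochores. It was at 10.45, 10.44, 10.44, 10.47 and 10.46 in Dp1Tyb hearts. It was at 10.57, 10.57, 10.59, 10.62 and 10.67 in Dp1TybDyrk1a+/+/- hearts. The groups did not overlap, the WT mean was 10.57, and the difference was -0.15 ± 0.02 (SE, adjusted P = 0.00671 by limma, 0.00532 without A15), called in all 10 fits that left out 1 heart. Mad2l1, which inhibits the anaphase-promoting complex, fell by 0.18 (adjusted P = 0.0242 by limma), and so did Knl1, the kinetochore scaffold that recruits BUB1 (adjusted P = 0.0397, and 0.0553 without A15).

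Outer kinetochore and centromere proteins beyond that list were counted after values were seen. Of 31 such genes, 6 were lower and none higher with all hearts, and 5 were lower without A15, with a median of -0.094. Spdl1, which brings dynein to kinetochores (chr11:34699835-34724494), was at 8.60, 8.54, 8.58, 8.62 and 8.59 in Dp1Tyb hearts. It was at 8.73, 8.74, 8.79, 8.77 and 8.73 in the other group. The gap between the groups was wider than the range within either, and the difference was -0.16 ± 0.03 (SE, adjusted P = 0.00702 by limma), or -0.18 with Xist level in the fit. Ska2, a subunit of the complex that couples kinetochores to microtubules, fell by 0.17 (adjusted P = 0.0101 by limma, 0.0123 without A15). Spc25 of the NDC80 complex fell by 0.16 and Cenpk by 0.20, the latter no longer called without A15 (adjusted P = 0.0575).

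Some of the largest differences rested in part on heart A15. Cenpf, a large kinetochore and nuclear matrix protein (chr1:189372752-189420315), was at 11.52, 11.45, 11.55, 11.62 and 11.66 in Dp1Tyb hearts. It was at 11.71, 11.74, 12.13, 11.75 and 11.84 in Dp1TybDyrk1a+/+/- hearts, where 12.13 is A15. Its difference of -0.27 ± 0.07 (SE, adjusted P = 0.0462 by limma) became -0.20 without A15 (adjusted P = 0.0516). Kif20b, a kinesin of cytokinesis, was likewise at 10.42 in A15 and at 10.04 to 10.10 in its 4 companions, and it stayed called without A15 at -0.17 (adjusted P = 0.0315 by limma). Mki67, the proliferation marker, was not called: its difference of -0.29 ± 0.10 (SE, adjusted P = 0.133) was -0.15 without A15, a heart in which it stood at 13.74 against 12.99 to 13.11 in the others of its genotype.

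Motors and regulators of mitosis were lower too. Ccna2, the A-type cyclin of S phase and mitotic entry, was at 11.97, 11.97, 12.01, 12.03 and 12.04 in Dp1Tyb hearts. It was at 12.14, 12.10, 12.25, 12.20 and 12.24 in Dp1TybDyrk1a+/+/- hearts. The difference was -0.18 ± 0.04 (SE, adjusted P = 0.0231 by limma), with no overlap. Kif11, the motor that separates spindle poles, fell by 0.17 and Kif15, which acts beside it, by 0.15, the latter not called without A15 (adjusted P = 0.0701 by limma). Prc1, which bundles the central spindle, fell by 0.18, and Fbxo5, the inhibitor of the anaphase-promoting complex, by 0.17 (adjusted P = 0.0176 by limma). Not every core gene of mitosis did so. Cdk1 differed by -0.02 (adjusted P = 0.834), Ccnb1 by -0.08 (adjusted P = 0.221) and Plk1 by -0.08 (adjusted P = 0.271).

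**Figure D2:**
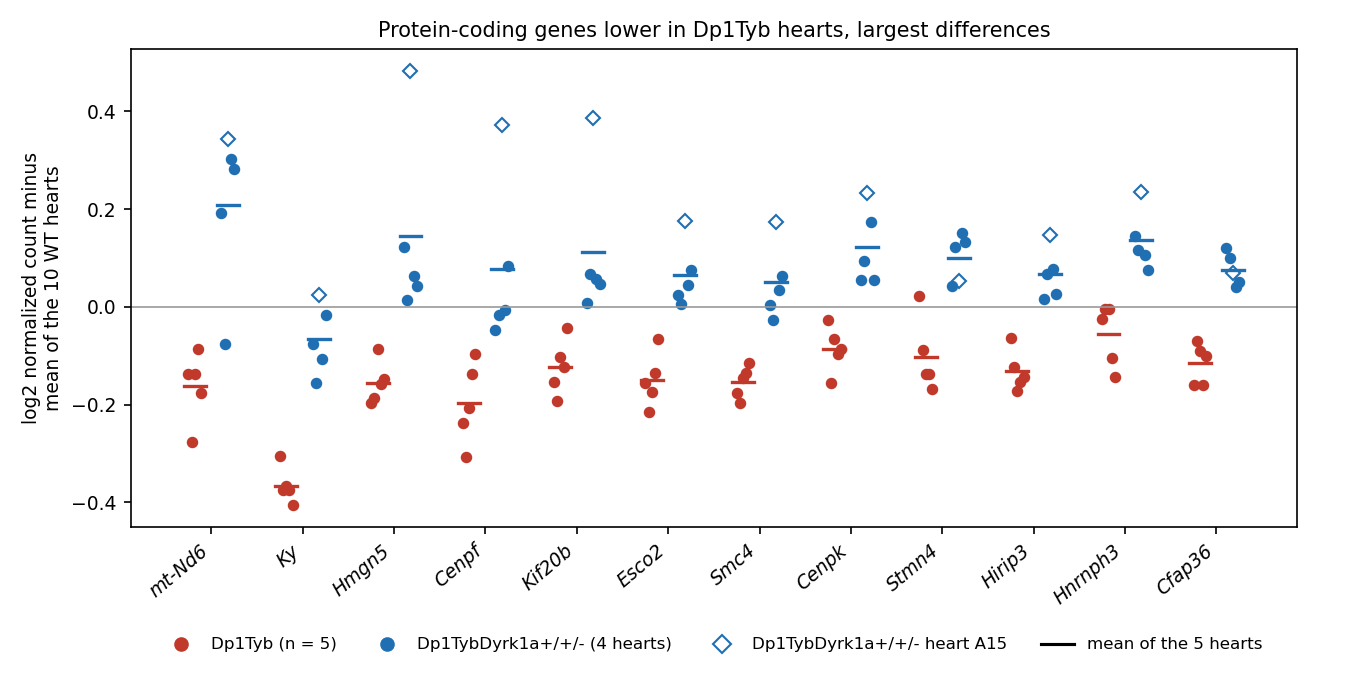
Log2 normalized count of each heart minus the mean of the 10 WT hearts for the 12 lower protein-coding genes with the largest called differences and no overlap. Red points are Dp1Tyb hearts, blue points Dp1TybDyrk1a+/+/- hearts, open diamonds heart A15, and bars the means of 5 hearts. A15 is the highest heart for every gene shown except Stmn4 and Cfap36, and it lies farthest from its companions for Hmgn5, Cenpf and Kif20b. For every gene shown the groups do not overlap with or without A15.

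Chromosome structure followed the same direction. Cohesin holds sister chromatids together. Of 15 tested cohesin genes 3 were lower and none higher, against 0.738% of all genes called lower, or 4 without A15, against 0.863%. Esco2, the acetyltransferase that establishes cohesion (chr14:66055821-66071443), was at 9.33, 9.27, 9.31, 9.35 and 9.42 in Dp1Tyb hearts. It was at 9.51, 9.49, 9.66, 9.53 and 9.56 in Dp1TybDyrk1a+/+/- hearts. No Dp1Tyb heart reached the lowest heart of the other group, and the difference was -0.21 ± 0.04 (SE, adjusted P = 0.00786 by limma, 0.00791 without A15). Rad21, the cohesin subunit cut at anaphase, fell by 0.15 and the X-linked subunit gene Stag2 by 0.12. Rec8, the meiotic counterpart of Rad21, was called only without A15, at -0.26 (adjusted P = 0.00532 by limma).

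Condensin, which compacts mitotic chromosomes, had 3 of 8 subunits lower with all hearts and 2 without A15, a list added after values were seen. Its Smc4 (chr3:68911944-68941960) was at 12.30, 12.28, 12.33, 12.34 and 12.36 in Dp1Tyb hearts. It was at 12.48, 12.45, 12.65, 12.51 and 12.54 in Dp1TybDyrk1a+/+/- hearts. The groups were separate with and without A15, and the difference was -0.20 ± 0.04 (SE, adjusted P = 0.00913 by limma). The DNA topoisomerase gene Top2b fell by 0.11 (adjusted P = 0.0231 by limma), and Top2a was called only without A15 (-0.15, adjusted P = 0.0457).

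Genes of DNA replication moved less. Of 40 tested, 4 were lower with all hearts and 8 without A15, none was higher in either, and the median was -0.057 with all hearts and -0.072 without A15. Prim1, the primase, and Pola1, the X-linked catalytic subunit of DNA polymerase alpha, both fell by 0.13. Pcna, the sliding clamp, was at 11.54, 11.55, 11.55, 11.57 and 11.47 in Dp1Tyb hearts. It was at 11.67, 11.65, 11.58, 11.70 and 11.72 in the other group. Here A15, at 11.58, was the heart nearest to Dp1Tyb, and the adjusted P-value went from 0.0304 with all hearts to 0.00721 without it by limma. Without A15, Rrm2 of ribonucleotide reductase fell by 0.18, the replication initiator Mcm10 by 0.14, and the helicase subunits Mcm7 by 0.12 and Mcm6 by 0.11, with adjusted P-values of 0.0194 to 0.0395 by limma.

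Chromatin proteins that are abundant in dividing cells were lower too. Of 9 tested HMG proteins, which bend or loosen chromatin, 4 were lower and none higher, and 5 were lower without A15, with a median of -0.126. Hmgb2 was at 11.71, 11.72, 11.74, 11.66 and 11.58 in Dp1Tyb hearts. It was at 11.82, 11.83, 11.75, 11.94 and 11.92 in Dp1TybDyrk1a+/+/- hearts. The difference was -0.17 ± 0.04 (SE, adjusted P = 0.0304 by limma) and -0.19 without A15 (adjusted P = 0.00791), where A15 with 11.75 had been the lowest of its group. The X-linked Hmgn5 was the reverse case, at 10.08 in A15 and 9.61 to 9.72 in the other 4, and its difference went from -0.30 to -0.22, called both times. Hmgn2, at 13.42 to 13.47 against 13.49 to 13.62, and the X-linked Hmgb3, at 10.91 to 11.05 against 11.13 to 11.16, did not overlap between groups.

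Histone chaperones and their ANP32 relatives, a list added after values were seen, had 5 of 21 genes lower and none higher, and 6 lower without A15. Hirip3, which binds the histone chaperone HIRA (chr7:126460365-126464550), was at 9.58, 9.52, 9.47, 9.49 and 9.50 in Dp1Tyb hearts. It was at 9.66, 9.71, 9.79, 9.72 and 9.67 in Dp1TybDyrk1a+/+/- hearts. Every Dp1Tyb heart was below every heart of the other group, with a difference of -0.20 ± 0.03 (SE, adjusted P = 0.00786 by limma). Nasp, which carries linker histones and H3, fell by 0.16, Anp32b by 0.17, Anp32e, the H2A.Z chaperone, by 0.12, and Dnajc9 by 0.11. Ezh2, the methyltransferase that writes H3K27 methylation, fell by 0.11 with all hearts (adjusted P = 0.0408 by limma) and was not called without A15 (adjusted P = 0.0546).

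Regulators at the entry of the cycle gave 2 of the smallest adjusted P-values. Of 18 G1 cyclins, kinases, pocket proteins and inhibitors, 2 were lower and none higher, and 3 were lower without A15. Rbl1, encoding the pocket protein p107 (chr2:156987813-157046475), was at 10.08, 10.06, 10.04, 10.06 and 10.03 in Dp1Tyb hearts. It was at 10.19, 10.18, 10.24, 10.19 and 10.22 in Dp1TybDyrk1a+/+/- hearts. No Dp1Tyb heart reached the lowest heart of the other group, the WT mean of 10.18 was at the level of the latter, and the difference was -0.15 ± 0.02 (SE, adjusted P = 0.00173 by limma, 0.00190 without A15).

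Cdkn1b encodes p27, an inhibitor of cyclin-dependent kinases that DYRK1A can phosphorylate (chr6:134897364-134902476). It was at 10.52, 10.56, 10.55, 10.51 and 10.55 in Dp1Tyb hearts. It was at 10.68, 10.65, 10.77, 10.69 and 10.69 in Dp1TybDyrk1a+/+/- hearts. The groups were separate, the WT mean was 10.69, and the difference was -0.16 ± 0.02 (SE, adjusted P = 0.00173 by limma, 0.00190 without A15). An inhibitor of the cycle thus fell together with genes that drive it. Cdkn2c, another inhibitor, was called only without A15 (-0.16, adjusted P = 0.0324 by limma).

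Apart from Rbl1, the genes named in the background for DYRK1A targets and DREAM were not called. The cyclin D genes Ccnd1 and Ccnd2 differed by -0.06 (adjusted P = 0.336) and -0.03 (adjusted P = 0.602), and Ccnd3 by 0.13 (adjusted P = 0.121). Lin52 differed by 0.005 (adjusted P = 0.953). None of 16 E2F and DREAM factors, a list that does not hold the pocket proteins counted with G1, was called with or without A15. Their median was -0.021, 6 had an unadjusted P-value under 0.05, and Foxm1, which drives late cell-cycle genes, came nearest with a difference of -0.10 (adjusted P = 0.0598 by limma). Of 23 tested DYRK kinases and DYRK1A substrates, Cdkn1b alone was called.

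Some RNA-binding proteins were lower. Of 26 heterogeneous nuclear ribonucleoproteins and FET proteins, counted after values were seen, 7 were lower and none higher with all hearts, and 5 were lower without A15, with a median of -0.093 and 24 differences below 0. Hnrnph3, which binds G-rich splice sites (chr10:62849329-62860506), was at 10.06, 10.08, 10.08, 9.98 and 9.94 in Dp1Tyb hearts. It was at 10.23, 10.20, 10.32, 10.19 and 10.16 in Dp1TybDyrk1a+/+/- hearts. The groups did not overlap, with a difference of -0.19 ± 0.04 (SE, adjusted P = 0.0148 by limma, 0.0190 without A15), but the WT mean of 10.08 was at the level of the Dp1Tyb hearts. Ptbp2, a splicing repressor, fell by 0.19, Hnrnpd by 0.18 and Taf15 by 0.14, the last no longer called without A15 (adjusted P = 0.0578 by limma). Among 30 general splicing factors the median was -0.060, and Rsrc1 alone was called, at -0.12.

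A few genes outside these groups had clear differences. Pnrc2, an adaptor of mRNA decay (chr4:135597733-135601389), was at 10.82, 10.83, 10.79, 10.75 and 10.82 in Dp1Tyb hearts. It was at 10.98, 10.95, 11, 10.96 and 10.96 in Dp1TybDyrk1a+/+/- hearts. It fell by 0.17 ± 0.02 (SE, adjusted P = 0.00173 by limma), and the WT mean was 10.97. Bard1, the partner of BRCA1 in DNA repair, fell by 0.16 (adjusted P = 0.00702 by limma). Ky, a muscle protein of the Z-disc region (chr9:102382949-102423441), was at 6.75, 6.68, 6.69, 6.68 and 6.65 in Dp1Tyb hearts. It was at 6.98, 6.90, 7.08, 6.95 and 7.04 in the other group, a difference of -0.30 ± 0.05 (SE, adjusted P = 0.0130 by limma). Stmn4, a stathmin that destabilizes microtubules, fell by 0.20, with A3 at 7.61 just under the lowest Dp1TybDyrk1a+/+/- heart at 7.63.

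Mitochondrially encoded mRNAs were set apart in large part by A15. Of 13 such mRNAs, mt-Nd6 alone was called, and the median of the list changed from -0.400 with all hearts to -0.174 without A15. In both fits 12 of the 13 differences were below 0. mt-Nd6, the complex I subunit encoded on the light strand (chrM:13552-14070, minus strand), was at 12.87, 12.73, 12.87, 12.92 and 12.83 in Dp1Tyb hearts. It was at 13.20, 12.93, 13.35, 13.31 and 13.29 in Dp1TybDyrk1a+/+/- hearts. A15 was the highest at 13.35 but near A17 and A18, A14 at 12.93 was next to the highest Dp1Tyb heart at 12.92, and the difference was -0.37 ± 0.08 (SE, adjusted P = 0.0231 by limma) with A15 and -0.34 without it (adjusted P = 0.0331). The within-lane differences of mt-Nd6 were -0.04 in lane 3, -0.40 in lane 6 and -0.49 in lane 7.

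mt-Co1, a core subunit of cytochrome c oxidase, was at 18.97 in A15 and at 17.94 to 18.23 in the other 4 Dp1TybDyrk1a+/+/- hearts, against 17.88 to 18.22 in Dp1Tyb hearts. Its difference was -0.30 ± 0.15 (SE, adjusted P = 0.276 by limma), and -0.13 without A15. The 2 mitochondrial rRNAs differed by -0.53 (mt-Rnr1, adjusted P = 0.104 by limma) and -0.36 (mt-Rnr2, adjusted P = 0.0519 by limma). Without A15 the differences were -0.41 and -0.31, and neither was called. For mt-Rnr2 the groups did not overlap with or without A15. Nuclear copies of mitochondrial sequence on chromosome 1 can share reads with these genes. Gm28439, 1 such pseudogene, was at 11.72 in A15 and 5.10 to 5.26 in its 4 companions, and Gm29216 was at 8.74 in A15 and 9.50 to 11.09 in them, so single mitochondrial genes are uncertain.

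Lists of small abundant mRNAs had medians near 0 with all hearts and below 0 without A15. The median of 77 nuclear-encoded respiratory chain genes was -0.002 with all hearts, with 39 below 0, and -0.067 without A15, with 76 below 0. The median of 75 cytosolic ribosomal proteins went from 0.000 to -0.054. No respiratory chain gene was called in either fit, 14 had an unadjusted P-value under 0.05 with all hearts, and of the ribosomal protein genes Rpl21 alone was called with all hearts and none without A15. Relative to WT, A15 had the respiratory chain list at -0.19, while the other 4 Dp1TybDyrk1a+/+/- hearts ran from 0.01 to 0.13 and Dp1Tyb hearts from -0.10 to 0.04. The lowest Dp1Tyb heart was A12, at -0.099 in that list and -0.115 in the ribosomal protein list. Its companions lay at 0.016 to 0.037 and at -0.021 to 0.074. Glycolysis (median 0.011 with all hearts) showed the same dip in A15, at -0.21. In A15 the long transcripts of Ttn (16.15, against 14.55 to 14.85 in its companions) and Kcnq1ot1 (11.01, against 9.07 to 9.44) were high, genes picked after their values were seen.

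**Figure D3:**
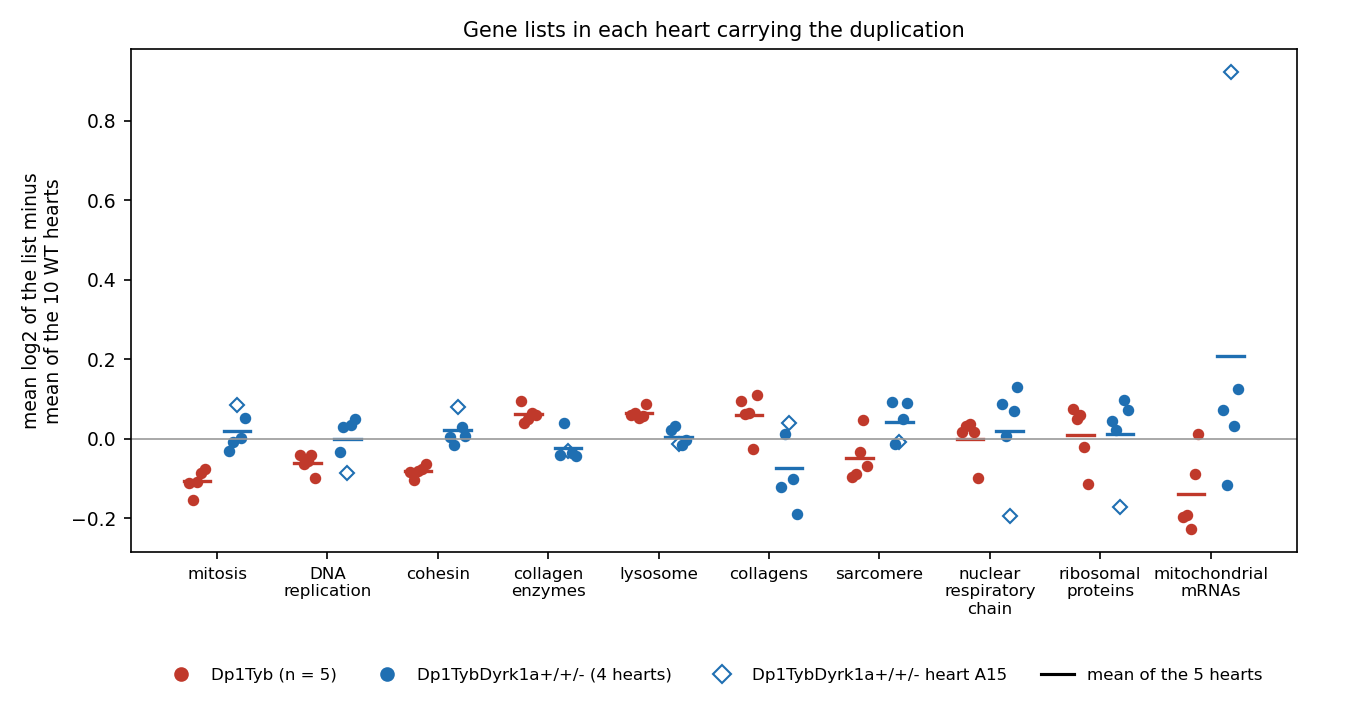
Mean log2 value of each gene list in each heart minus the mean of the 10 WT hearts. Red points are Dp1Tyb hearts, blue points Dp1TybDyrk1a+/+/- hearts, open diamonds heart A15, and bars the means of 5 hearts. For mitosis, cohesin and lysosome all Dp1Tyb hearts lie on 1 side of all Dp1TybDyrk1a+/+/- hearts, and for the respiratory chain, ribosomal proteins and mitochondrial mRNAs A15 lies at an extreme.

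Genes that rose included enzymes that modify collagen in the secretory pathway. Of 28 tested genes for collagen processing and cross-linking, 5 were higher in Dp1Tyb and none lower, and 3 were higher without A15, with a median of 0.094 with all hearts and 0.077 without A15. P3h1, the prolyl 3-hydroxylase of fibrillar collagens (chr4:119089974-119106174), was at 10.47, 10.49, 10.45, 10.42 and 10.45 in Dp1Tyb hearts. It was at 10.27, 10.38, 10.23, 10.29 and 10.31 in Dp1TybDyrk1a+/+/- hearts. The groups did not overlap, A14 being the nearest of the second group, and the difference was 0.16 ± 0.03 (SE, adjusted P = 0.00913 by limma, 0.0106 without A15).

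Fkbp10, a collagen chaperone, rose by 0.14 and the galactosyltransferase Colgalt1 by 0.10, both called with and without A15. Pcolce, which enhances the cutting of procollagen, rose by 0.16 and the lysyl hydroxylase Plod1 by 0.14, but neither was called without A15 (adjusted P = 0.0506 and 0.0701 by limma). The collagens themselves had a list median of 0.148 with all hearts and 0.150 without A15, with 24 of 25 above 0. Their list means overlapped between the groups. They were -0.03 to 0.11 in Dp1Tyb hearts, 0.04 in A15 and -0.19 to 0.01 in the other Dp1TybDyrk1a+/+/- hearts. WT hearts alone ran from -0.21 to 0.12. Col23a1 alone was called (adjusted P = 0.0416 by limma), and not without A15 (adjusted P = 0.0578). Col3a1 differed by 0.20 ± 0.08 (SE, adjusted P = 0.204) and Col1a1 by 0.22 ± 0.15 (SE, adjusted P = 0.418 by limma). Col1a1 stood at 15.53 in A15 and at 14.60 to 15.02 in its companions.

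Markers of fibroblasts and of neighbouring tissue also differed between hearts. Of 12 fibroblast and cushion mesenchyme markers none was called, with a median of 0.090, 11 above 0, and list means of -0.03 to 0.13 in Dp1Tyb hearts, -0.20 to 0.04 in the 4 Dp1TybDyrk1a+/+/- hearts and 0.19 in A15. Of the lung markers, which lie outside the heart, 6 of 8 were tested, all at low level, and none was called. Their list means were 0.04 to 0.14 in 4 Dp1Tyb hearts and -0.24 in A7, and -0.27 to -0.08 in 4 Dp1TybDyrk1a+/+/- hearts and 0.13 in A15. Cdh1, an epithelial cadherin picked after its values were seen, was at 6.78 to 7.07 in 4 Dp1Tyb hearts and 6.05 in A7, and at 6.03 to 6.49 in 4 Dp1TybDyrk1a+/+/- hearts and 7.43 in A15. The part of attached tissue in the differences of matrix genes was not tested.

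Glycosaminoglycan chains are built in the same compartments, and 1 of their 33 tested genes was called, against 0.425% of all genes tested called higher. Chpf, a chondroitin polymerizing factor (chr1:75451206-75455951), had the largest rise of any gene called with all hearts. It was at 9.49, 9.44, 9.39, 9.42 and 9.44 in Dp1Tyb hearts. It was at 9.15, 9.29, 9.02, 9.20 and 9.17 in Dp1TybDyrk1a+/+/- hearts. The groups were separate with or without A15, the lowest heart at 9.02, and the difference was 0.27 ± 0.05 (SE, adjusted P = 0.00786 by limma), or 0.24 without A15 (adjusted P = 0.00918). The WT mean of 9.32 lay between the groups. The list median was 0.043, with 31 of 33 above 0.

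Lysosomal genes were shifted upward by small amounts. Of 43 tested, 2 were higher and none lower with all hearts, against 0.425% of all genes tested called higher. Without A15 3 were higher, against 0.444%. The median was 0.078 with all hearts and 0.053 without A15, and 20 had an unadjusted P-value under 0.05 with all hearts. The list mean lay between 0.05 and 0.09 above WT in all Dp1Tyb hearts and between -0.02 and 0.03 in the Dp1TybDyrk1a+/+/- hearts, A15 included. Gaa, the acid glucosidase that degrades glycogen, was at 11.51, 11.50, 11.58, 11.62 and 11.64 in Dp1Tyb hearts. It was at 11.39, 11.44, 11.37, 11.38 and 11.44 in Dp1TybDyrk1a+/+/- hearts. It rose by 0.17 ± 0.03 (SE, adjusted P = 0.0242 by limma), and Pld3, a lysosomal nuclease, by 0.15. Lyz2, the lysozyme of macrophages, rose by 0.22 (adjusted P = 0.0327 by limma, 0.0516 without A15), while the other 13 macrophage markers were not called and the median of the list was 0.023.

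**Figure D4:**
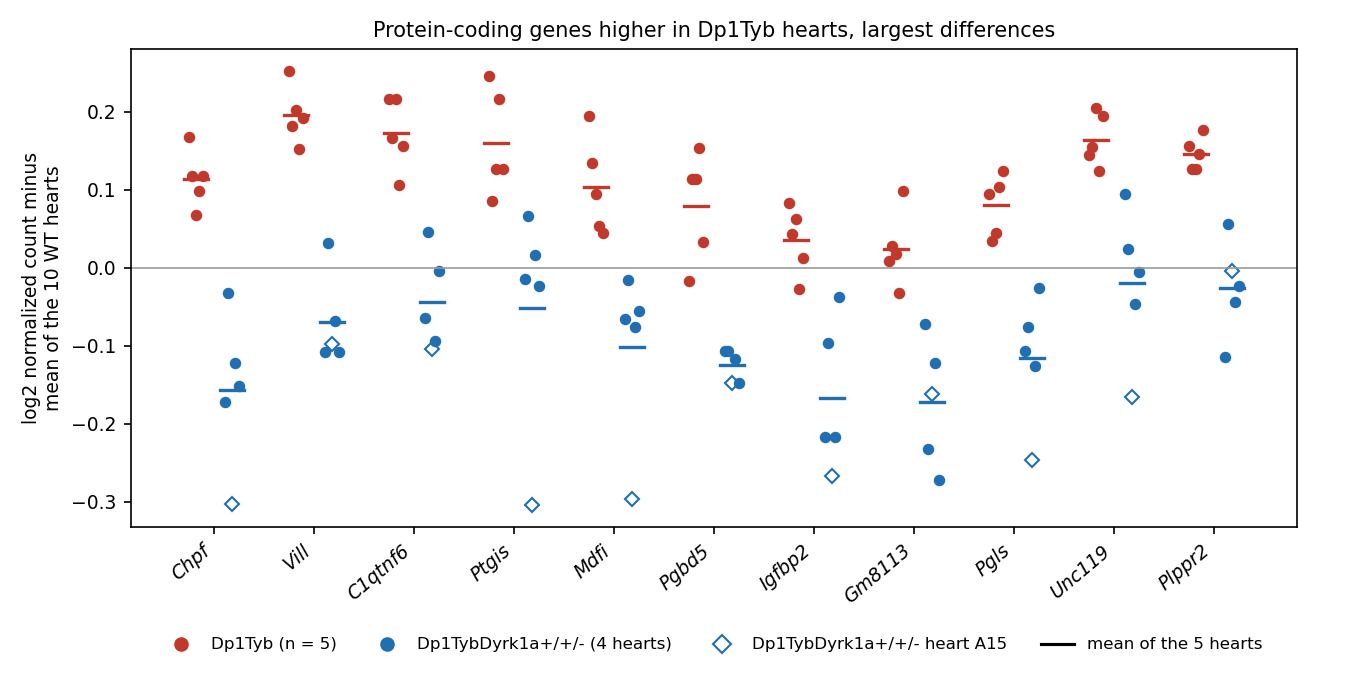
Log2 normalized count of each heart minus the mean of the 10 WT hearts for 11 of the 12 higher protein-coding genes with the largest called differences, no overlap and a place outside the duplicated region. Red points are Dp1Tyb hearts, blue points Dp1TybDyrk1a+/+/- hearts, open diamonds heart A15, and bars the means of 5 hearts. A15 is the lowest heart shown for Ptgis (8.56), Mdfi (8.59), Chpf (9.02), C1qtnf6 (9.62), Igfbp2 (9.16), Pgls (8.57) and Unc119 (8.56). For Pgbd5, A15 and A18 are both at 6.73. For every gene shown the groups do not overlap with or without A15.

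Other genes that rose code for secreted and membrane proteins. C1qtnf6, a secreted C1q and TNF related protein (chr15:78407546-78415616), was at 9.94, 9.89, 9.94, 9.83 and 9.88 in Dp1Tyb hearts. It was at 9.66, 9.77, 9.62, 9.63 and 9.72 in Dp1TybDyrk1a+/+/- hearts. The groups did not overlap, and the difference was 0.21 ± 0.03 (SE, adjusted P = 0.00354 by limma, 0.00546 without A15). Igfbp2, which binds insulin-like growth factors, rose by 0.20 (adjusted P = 0.0156 by limma), although its WT mean of 9.43 was at the level of the Dp1Tyb hearts. Itih5, which stabilizes hyaluronan matrix, rose by 0.21 with all hearts and by 0.27 without A15, where its adjusted P-value of 0.000961 by limma was the smallest of any gene along with that of Mrap. A15 stood at 9.23 for Itih5 and its companions at 8.88 to 9.04.

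Kif1a, an axonal transport motor, rose by 0.26 with all hearts and by 0.32 without A15, a heart in which it was at 9.25 against 8.89 to 9.04 in its companions. Vill, a villin-like actin-binding protein, rose by 0.26 (adjusted P = 0.0130 by limma), and Limk1, the kinase that acts on cofilin, by 0.15. Ptgis, the prostacyclin synthase, rose by 0.21 with all hearts and by 0.15 without A15, and was called both times.

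Within the duplicated region 2 of 95 tested genes were called higher with all hearts and 0 lower, besides the general excess over WT. Over all genes tested 0.425% were called higher. Mrap, the accessory protein of the melanocortin receptors (chr16:90535095-90546673), had the smallest adjusted P-value of all genes with all hearts. It was at 6.88, 7.0, 6.89, 6.90 and 6.94 in Dp1Tyb hearts. It was at 6.69, 6.69, 6.67, 6.66 and 6.65 in Dp1TybDyrk1a+/+/- hearts. The difference was 0.25 ± 0.03 (SE, adjusted P = 0.000523 by limma), the same without A15, and the Dp1TybDyrk1a+/+/- hearts were at the WT mean of 6.72. Clic6, a chloride channel family member (chr16:92282624-92338739), was at 6.26 to 6.37 in Dp1Tyb hearts and 6.06 to 6.23 in the other group, and rose by 0.17 (adjusted P = 0.0460 by limma, 0.0339 without A15). Sh3bgr, a muscle gene of the region, was called only without A15 and in the other direction. It was at 12.39 to 12.58 in Dp1Tyb hearts and at 12.64 to 12.75 in 4 Dp1TybDyrk1a+/+/- hearts, with A15 at 12.39, a difference of -0.20 (adjusted P = 0.0457 by limma).

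No gene of the sarcomere list was called. Over its 30 sarcomere and Z-disc genes the median was -0.088 with all hearts and -0.097 without A15, and 25 were below 0. Myh7, the slow myosin heavy chain, differed by -0.12 ± 0.08 (SE, adjusted P = 0.408), and Actc1, cardiac actin, by -0.04 (adjusted P = 0.80). Myl2, the ventricular light chain, was at 15.49 to 15.63 in Dp1Tyb hearts and at 15.75 to 15.88 in 4 Dp1TybDyrk1a+/+/- hearts, with A15 at 15.63, and its difference was -0.19 with all hearts (adjusted P = 0.112 by limma) and -0.23 without A15 (adjusted P = 0.0575). Of 10 cardiomyocyte markers 9 were below 0, with a median of -0.136 and list means of -0.16 to 0.07 in Dp1Tyb hearts and -0.04 to 0.19 in the others, so the groups overlapped. Cardiomyocyte markers were abundant in every heart, Myh7 at 16.78 to 17.09 and Actc1 at 16.72 to 16.98.

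No gene was called with or without A15 in the lists for cardiac septation factors (28 tested), TGF-beta and BMP signalling (33), Notch signalling (20), interferon-stimulated genes and antigen presentation (31), glycolysis (23) or immediate early genes (24). Their medians with all hearts lay between -0.031 and 0.042, and 4, 8, 3, 1, 2 and 3 of their genes had an unadjusted P-value under 0.05 by limma. Calcium handling and channel genes had 1 call among 32. Markers of endothelium, epicardium, atrial and ventricular muscle, smooth muscle, neural crest, liver, skeletal muscle and thymus gave no call either. Erythroid markers, which follow the blood left in a heart, had a median of 0.122 and list means from -0.50 to 0.47 across the 10 hearts.

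Direction followed base composition across the genome. Genes were sorted into 10 equal bins by GC content of the canonical transcript, and the median difference rose from -0.036 in the lowest bin to 0.051 in the highest with all hearts, and from -0.029 to 0.037 without A15. Of the called genes in the lowest bin 37 were lower and 0 higher, and in the highest bin 0 were lower and 26 higher. The median GC content was 44.4% for lower genes, 56.8% for higher genes and 50.1% for all tested. With each heart adjusted for GC content and length, 64 genes were called, 23 higher and 41 lower, of which 50 were among the 178, and the median of the mitosis list was -0.115. The medians of the collagens (0.085), collagen enzymes (0.075) and lysosomal genes (0.055) stayed above 0 with that adjustment. The part of base composition in the differences of single genes was otherwise not tested.

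**Figure D5:**
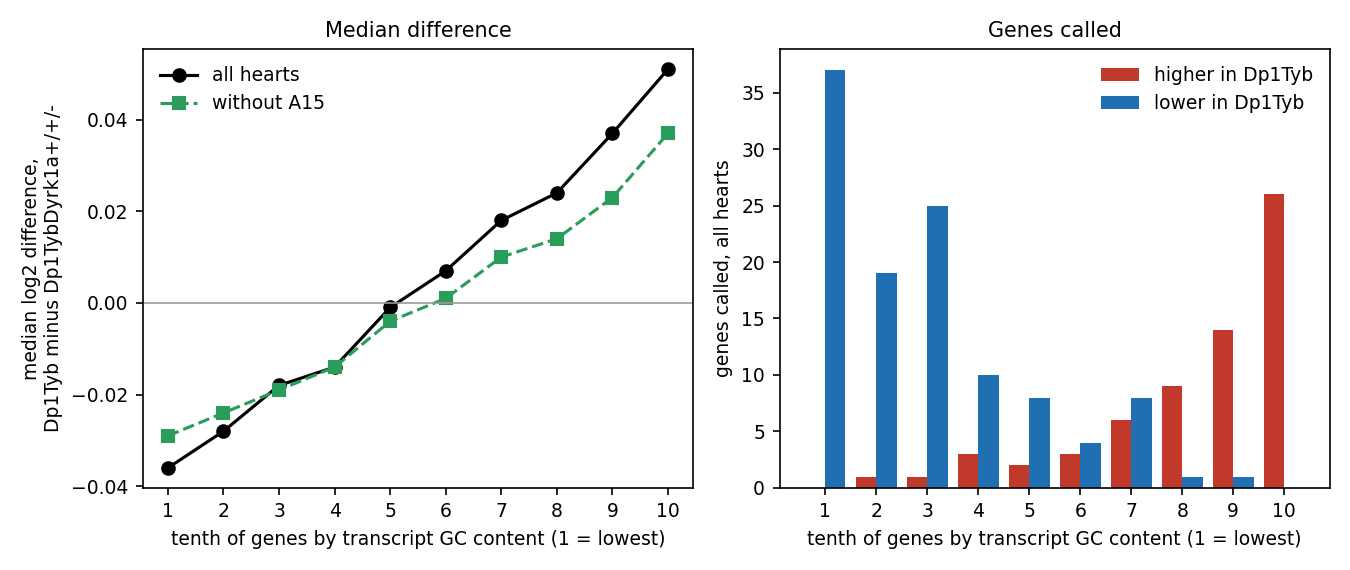
Tested genes in 10 equal bins by GC content of the canonical transcript (1 is lowest). Left, the median log2 difference (Dp1Tyb minus Dp1TybDyrk1a+/+/-) with all hearts (circles) and without A15 (squares), and right, the number of genes called higher (red) or lower (blue) in Dp1Tyb with all hearts. The median rises from -0.036 to 0.051 with all hearts, and called genes go from 37 lower in the lowest bin to 26 higher in the highest.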

How the data were processed

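RNA of 20 whole E13.5 mouse hearts was sequenced as mRNA libraries (KAPA mRNA HyperPrep). The submitters' processing notes name Trimmomatic 0.36, STAR 2.5.2a, RSEM 1.2.31, DESeq2 and build GRCm38. The authors deposited 1 table of log2 normalized counts for 48795 Ensembl genes, and the strand setting is not given in the sources used here. No counts were used, so the precision that read depth gives is unknown, and DESeq2, which the study used, could not be applied.

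From these values, the 15304 genes averaging 10 or more normalized counts were fitted with limma 3.58.1 (trend) in R 4.3.3 over all 3 genotypes, which share 1 estimate of the spread, with Benjamini-Hochberg adjusted P-values under 0.05 called. The same was done without A15. Values were simulated for this comparison with independent noise of the same spread in every heart. In 200 of 15304 genes a shift of 0.3 log2 units was added. Of these, 182 were recovered, and 7 others were called. That shift is larger than the median called difference of 0.15, and no simulated heart stood apart as A15 did. These counts therefore do not carry over to the real hearts. Gene lists and the rule for named genes were chosen with earlier results of these data known, and 4 of 48 lists were added after values were seen. Genes were named by this rule: Dyrk1a, the largest called differences without overlap (12 per direction), the smallest adjusted P-values in both fits (8 per direction), up to 4 called members per list (or the 2 most abundant), called genes of the duplicated region, the genes farthest from its group in A15 and mitochondrial genes. Other genes named in the text, such as Fbxo5, Prc1, Kif11, Ccna2, Ska2, Mki67, Rec8, Top2a, Ezh2, Itih5, Kif1a and Sh3bgr, were chosen after their values were seen, and a few genes that the rule names are not reported here. Names and GRCm39 coordinates are from GENCODE M39, matched by Ensembl ID, and promoters from RefSeq (GRCm38.p6), matched by symbol for 11103 tested genes. Alternatives were filters, scalings, covariates, weights, other eBayes settings and left-out hearts.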

Additional observations from a re-analysis of the deposited data

Results flagged for a closer look

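Each genotype's 5 hearts were examined by Dixon's ratio for 70 genes (those called and named by rule, Dyrk1a and the mitochondrial genes), 140 groups in all. In 16 of them 1 heart stood apart from the other 4, 14 times A15, and chance alone marks about 1 group in 20. A15 was the highest Dp1TybDyrk1a+/+/- heart for Hmgn5 (10.08), Kif20b (10.42), mt-Nd1 (17.78), mt-Nd2 (17.20), mt-Co1 (18.97), mt-Co2 (13.75), mt-Atp8 (15.26), mt-Atp6 (14.99), mt-Nd4 (18.01), mt-Nd5 (17.85) and mt-Cytb (17.97). It was the lowest for Ptgis (8.56), Mdfi (8.59) and Prim1 (9.28). For Vill, A14 was the heart of that genotype nearest to Dp1Tyb (7.96), and for mt-Atp8, A12 was the lowest Dp1Tyb heart (13.43). Of the called genes among these, Mdfi alone was not called without A15 (adjusted P = 0.0701 by limma). Prim1 had the smaller adjusted P-value without it, 0.0207 against 0.0397 with all hearts by limma.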

How the results depend on the processing

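With all hearts 178 genes were called, and without A15 200. The count rose to 273 with genes of a mean normalized count of at least 100, to 1247 with hearts weighted by quality and to 404 without WT heart A10. It fell to 76 with no filter, to 29 with lane and to 12 with Xist level as a covariate, to 64 after adjustment for GC content and length, and to 3 where only the 10 hearts were fitted, in which 2257 genes had an unadjusted P-value under 0.05. Without A15, the corresponding counts were 329 with only the remaining 9 hearts, 90 with lane, 80 with GC content and length, 49 with Xist level, and 606 when A10 was left out as well. Leaving out each of the 10 hearts in turn gave 30 to 302 calls, the lowest without A4 and the highest without A14, and 36 without A17 and 50 without A6. Xist level and A10 were added after seeing the data. Centring each heart on its median gave 48 higher and 177 lower genes, against 65 and 113. Other scalings and eBayes settings stayed within 1.5 times of the main count. The cause of these shifts was not tested. No paired analysis was possible because the groups share no replicate numbers. Among the 55 called genes named by rule, the sign was the same under all 27 alternatives, and 1005 of their results stayed past the threshold while 478 did not. Filters, eBayes settings and leaving out A10 cannot change the sign, since they leave the difference of group means as it was. The limit throughout is 5 hearts a genotype, uneven over sex, lane and strain, with read depth unknown.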
